A study of Mus musculus with 14 samples.

Results

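The S100 genes followed here, 10 in number, were compared across the layers of the mouse esophagus: S100a1, S100a3, S100a4, S100a6, S100a8, S100a9, S100a10, S100a11, S100a14 and S100a16. They were taken by symbol, as 10 of the 55291 gene rows in the count tables. Bulk RNA was measured in peeled murine esophageal epithelium and in the stroma left by the peeling, in aged and young wild type C57BL/6 mice. Aged mice were labelled as at least 18 months old and young mice as at most 4 months old. There were 5 aged (O1, O2, O3, OF5, OM8) and 4 young (Y1, Y3, YF5, YM4) epithelial samples, and 3 aged (O1, O2, O3) and 2 young (Y1, Y3) stromal samples, each from 1 mouse. The labels give no transgene and no treatment, and the layers were separated by hand, so that an epithelial sheet can hold lamina propria and a stromal sample can hold remnants of epithelium.

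S100 proteins are small calcium-binding proteins with a pair of EF-hand motifs that change shape when calcium binds and then attach to partner proteins. Most of their genes lie in a cluster beside the genes of the epidermal differentiation complex, and several are used in the differentiation of squamous epithelium. S100A8 and S100A9 form calprotectin, an antimicrobial complex that neutrophils store in large amounts and that keratinocytes can also make, S100A10 binds annexin A2 at membranes, and S100A1 is best known from striated muscle, where it acts on calcium cycling.

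Of the defining markers of the layers, 9 of 9 squamous epithelium genes were called higher in epithelium and 12 of 12 skeletal muscle genes were called lower (edgeR quasi-likelihood test, Benjamini-Hochberg adjusted). Of 6 fibroblast markers, 3 were called lower in epithelium and 3 were not called, against 30.1% of all genes called lower. Total counts ran from 8217516 to 21867101 a sample. The 4 epithelial samples OF5, OM8, YF5 and YM4, which have no stroma and carry codes of another form, were far shallower in protein-coding genes, with 1042394 to 1433855 counts against 7971284 to 11067322 in the other 5 epithelial samples. In these 4 samples 63.9% to 73.9% of all counts fell on the ribosomal RNA gene CT010467.1. A count of 0 allows up to 3 counts, which was 0.0872 to 0.175 normalized counts in the 10 deeper samples and 0.707 to 1.25 in the 4 others. The normalized count used here is the CPM (counts scaled to library size) on a library size adjusted by the TMM method over the 14 samples, and it is divided by kilobases of exon only where genes are compared with each other.

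Epithelium and stroma differed in the proportions of the S100 genes. S100a14 and S100a16 together took 68.4% to 72.1% of the counts of the 10 genes in every epithelial sample but 7.51% to 14.5% in every stromal sample. S100a1 took 0.507% to 1.21% of them in epithelium and 19.6% to 43.9% in stroma. Over all 10 genes, the share of protein-coding counts was 0.0827% to 0.176% in epithelium and 0.0242% to 0.0533% in stroma.

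Between the layers, 7 of the 10 genes passed the filter on low counts, 5 were called higher in epithelium, 1 was called lower and S100a6 was not called. S100a3, S100a4 and S100a8 stayed under the filter and were not tested. Of all 16791 genes tested, 26.1% were called higher in epithelium and 30.1% lower. The median log2 fold change was 1.66 over the 7 genes and −0.05 over all genes tested. In bulk tissue, fewer cells of a type and less RNA per cell cannot be told apart, and the peeling sets how many cells of each type a sample holds.

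**Figure D1:**
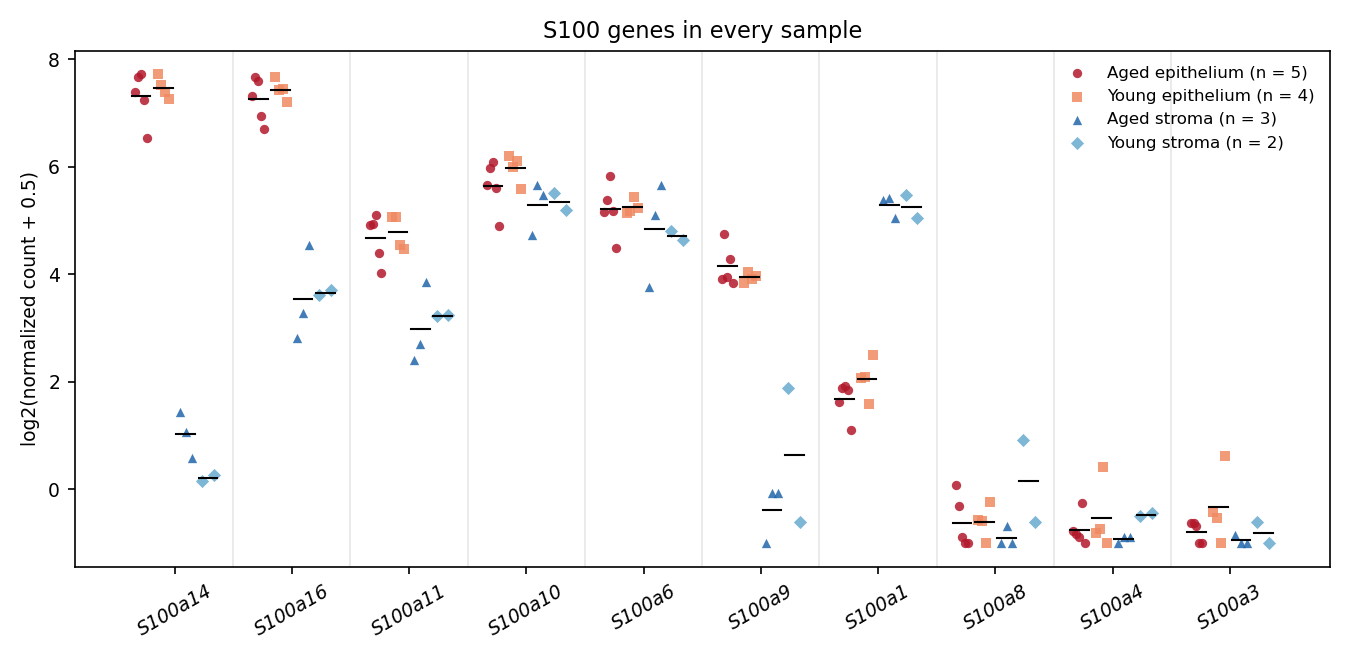
Each point is 1 sample, with the log2 of the normalized count plus 0.5 on the vertical axis and the 10 S100 genes along the horizontal axis. Black bars are the means of the 4 groups of the legend. S100a14, S100a16, S100a11 and S100a9 lay higher in all epithelial than in all stromal samples, S100a1 lay lower, and the 3 genes on the right stood near the lower end of the scale in every group.

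S100a14 and S100a16, both called higher in epithelium, lie next to each other on chromosome 3. S100a14 (ENSMUSG00000042306.11, GRCm38.p6, chromosome 3, 90526856 to 90528837, plus strand) encodes a member with an altered calcium-binding site that is typical of epithelia. Its normalized count in the 9 epithelial samples was 92.9 at the lowest, 168 at the median and 211 at the highest. The 4 shallow samples had 92.9 to 167 and the other 5 epithelial samples had 168 to 211. In stroma the normalized count was 2.22 in O1, 1.60 in O2, 0.995 in O3, 0.619 in Y1 and 0.709 in Y3. No sample of the layers overlapped, and the log2 fold change was 7.13 (SE 0.36, adjusted p = 3.42e-12), a 140-fold difference and the largest among the 7 tested genes. The stromal mean was 0.718% of the epithelial mean. Over the 9 squamous epithelium markers this share ran from 0.4001% for the suprabasal keratin Krt4 to 8.88% for the basal cell factor Trp63, with a median of 1.09%, so S100a14 lay within their range.

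S100a16 (ENSMUSG00000074457.10, chromosome 3, 90537254 to 90543151, plus strand) encodes a widely used member of the family. In epithelium its normalized count was 104 at the lowest, 173 at the median and 204 at the highest. In stroma it was 6.53 in O1, 9.20 in O2, 23.0 in O3, 11.7 in Y1 and 12.53 in Y3. The layers did not overlap here either, with a log2 fold change of 3.71 (SE 0.29, adjusted p = 1.23e-09). The stromal mean was 7.65% of the epithelial mean, a larger share than for S100a14. It lay at the upper end of the 9 squamous epithelium markers, whose median was 1.09%. Only Trp63 had a larger share, at 8.88%, and Ivl came next below S100a16 with 6.13%. Per kilobase of exon the genes stood side by side in epithelium, at 102 ± 21.6 normalized counts for S100a16 and 99.1 ± 21.5 for S100a14 (SD, n = 9), and S100a16 was the higher in 7 of 9 samples.

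S100a11 (ENSMUSG00000027907.4, chromosome 3, 93520488 to 93526287, plus strand) encodes a partner of annexin A1 that is found in the cornified envelope. Its normalized count in epithelium was 15.8 at the lowest, 29.7 at the median and 33.8 at the highest. The 4 shallow samples had 15.8 to 22.9 and the other 5 epithelial samples had 29.7 to 33.8. The stromal samples held 4.78 in O1, 6.04 in O2, 14.04 in O3, 8.82 in Y1 and 8.98 in Y3. All epithelial samples were above all stromal ones, though the lowest epithelial sample, OM8, was close to the highest stromal one, O3. The log2 fold change was 1.66 (SE 0.25, adjusted p = 8.96e-06).

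S100a10 (ENSMUSG00000041959.14, chromosome 3, 93555080 to 93564643, plus strand), the light chain of the annexin A2 complex, differed far less. Its normalized count in epithelium was 29.5 at the lowest, 62.3 at the median and 73.3 at the highest. In stroma it was 26.1 in O1, 49.8 in O2, 44.0 in O3, 45.4 in Y1 and 35.97 in Y3. The layers overlapped, and the log2 fold change of 0.50 (SE 0.20, adjusted p = 0.0412) lay just past the threshold of 0.05. The call was lost when mouse O1 (log2 0.38), O2 (0.56), O3 (0.49), Y1 (0.50), Y3 (0.40) or YF5 (0.47) was left out, and in the aged mice alone (0.37).

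S100a6 (ENSMUSG00000001025.8, chromosome 3, 90612882 to 90624181, plus strand), also named calcyclin and linked to dividing and stromal cells, had similar mean levels in the layers. Its normalized count in epithelium was 21.9 at the lowest, 35.6 at the median and 56.4 at the highest. In stroma it was 13.1 in O1, 34.0 in O2, 50.4 in O3, 27.3 in Y1 and 24.3 in Y3. The groups overlapped, and the log2 fold change of 0.35 (SE 0.24, 95% interval −0.16 to 0.86, adjusted p = 0.233) was not called. With the mouse as a block over the 10 samples that pair the layers of 5 mice, S100a6 was called higher in epithelium (log2 0.56, adjusted p = 0.0444). Of the 16713 genes of that fit, 27.4% were called higher.

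Within each of the 5 mice that gave both layers, S100a14, S100a16, S100a11, S100a10, S100a9 and S100a6 were higher in epithelium in 5 of 5. The difference within a mouse, on the log2(normalized count + 0.5) scale, was 5.96 to 7.56 for S100a14, 3.05 to 4.51 for S100a16 and 1.24 to 2.52 for S100a11. It was 0.32 to 0.94 for S100a10 and 0.16 to 1.41 for S100a6, where mouse O1 gave the upper end for both genes. S100a16, S100a11 and S100a6 had their smallest difference in mouse O3, whose stroma held the highest normalized count of each.

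**Figure D2:**
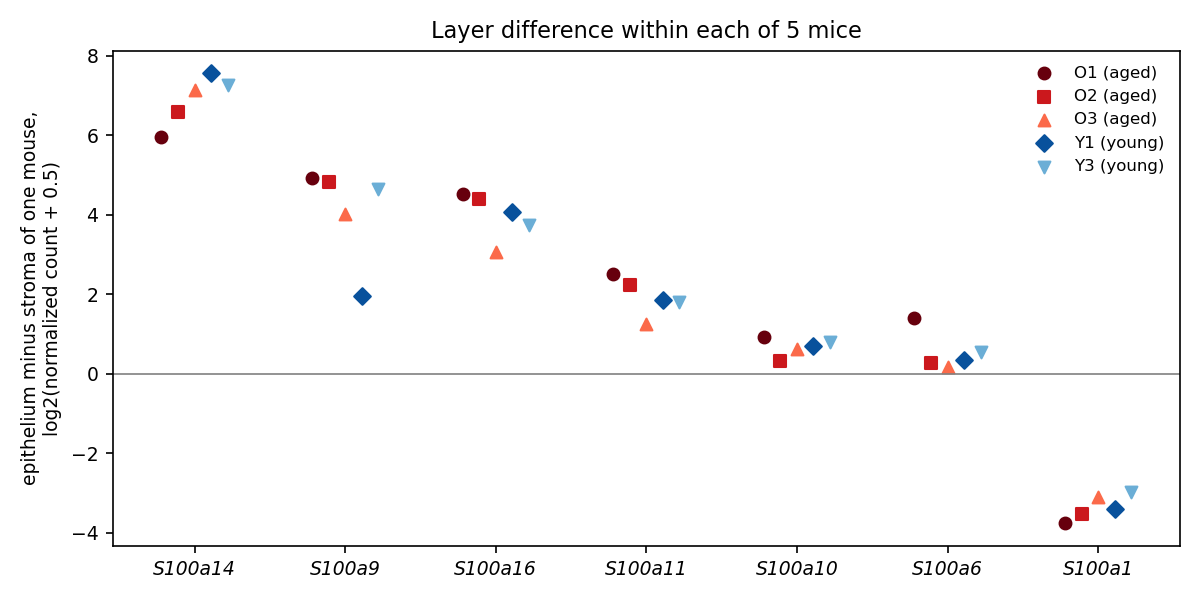
The vertical axis gives epithelium minus stroma of the same mouse on the log2(normalized count + 0.5) scale, for 7 S100 genes and the 5 mice that gave both layers. The 6 other genes lay above 0 in all 5 mice and S100a1 lay below 0 in all 5, between −3.76 and −2.96. The lowest point of S100a9, at 1.96, is mouse Y1.

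S100a1 (ENSMUSG00000044080.9, chromosome 3, 90511034 to 90514392, minus strand) was the 1 gene of the 10 called lower in epithelium. Its normalized count in stroma was 41.3 in O1, 42.6 in O2, 32.4 in O3, 43.8 in Y1 and 32.7 in Y3. In epithelium it was 1.65 at the lowest, 3.21 at the median and 5.19 at the highest. The layers did not overlap, and the log2 fold change was −3.57 (SE 0.19, adjusted p = 5.57e-12), which is 11.9-fold. The epithelial mean was 8.35% of the stromal mean. Over the 12 skeletal muscle markers this share ran from 0.597% for the giant muscle protein gene Ttn to 4.34% for Des, which encodes desmin, so that of S100a1 was above all 12. The summed skeletal muscle markers ran from 169 to 1855 normalized counts in epithelium and from 42353 to 76538 in stroma. Des alone gave 178 of the sum of 193 in OF5 epithelium and 92.4 of 169 in OM8 epithelium. The part of these markers in the layer difference of S100a1 was not tested.

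In all, 4 of the 7 tested genes (S100a9, S100a11, S100a14, S100a16) lay higher in every epithelial than in every stromal sample, against 14.4% of all genes tested. S100a1 lay lower throughout, against 16.9%. S100a3, S100a4 and S100a8, which were not tested, overlapped between the layers. The members were chosen with earlier results of these data known, so these shares carry no test. Leaving out the 4 shallow epithelial samples left 6 genes called, where 9400 of all 16713 genes tested were called.

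The promoters of 4 members are shown: S100a1 as the stromal gene, S100a8 and S100a9 as calprotectin partners with unequal counts, and S100a11 because the motif search had found a repeat in it. RefSeq promoter windows on GRCm38.p6, from 250 bases before to 50 bases after a start site, held 8 of the 10 genes; S100a10 and S100a14 had no entry. Capitals mark letters that match the AP-1, C/EBP or TATA box motif, each searched on both strands.
S100a1, chr3:90514281-90514580, minus strand: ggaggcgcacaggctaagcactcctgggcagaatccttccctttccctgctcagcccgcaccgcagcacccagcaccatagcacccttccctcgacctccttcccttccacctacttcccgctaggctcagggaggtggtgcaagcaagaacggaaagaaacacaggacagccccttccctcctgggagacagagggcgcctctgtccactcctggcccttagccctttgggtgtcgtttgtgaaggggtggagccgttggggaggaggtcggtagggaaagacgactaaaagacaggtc
S100a8, chr3:90668821-90669120, plus strand: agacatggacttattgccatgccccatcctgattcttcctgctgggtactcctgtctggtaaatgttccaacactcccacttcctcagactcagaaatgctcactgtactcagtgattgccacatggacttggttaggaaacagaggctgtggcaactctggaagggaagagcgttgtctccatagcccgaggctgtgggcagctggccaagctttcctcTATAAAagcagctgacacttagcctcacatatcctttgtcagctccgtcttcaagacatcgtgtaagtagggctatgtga
S100a9, chr3:90695672-90695971, minus strand: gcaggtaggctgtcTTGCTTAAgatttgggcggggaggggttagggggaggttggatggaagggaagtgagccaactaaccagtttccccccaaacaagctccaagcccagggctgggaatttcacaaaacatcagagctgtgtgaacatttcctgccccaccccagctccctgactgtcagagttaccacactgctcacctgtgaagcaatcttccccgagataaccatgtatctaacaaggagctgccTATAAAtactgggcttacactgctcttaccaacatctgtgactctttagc
S100a11, chr3:93520246-93520545, plus strand: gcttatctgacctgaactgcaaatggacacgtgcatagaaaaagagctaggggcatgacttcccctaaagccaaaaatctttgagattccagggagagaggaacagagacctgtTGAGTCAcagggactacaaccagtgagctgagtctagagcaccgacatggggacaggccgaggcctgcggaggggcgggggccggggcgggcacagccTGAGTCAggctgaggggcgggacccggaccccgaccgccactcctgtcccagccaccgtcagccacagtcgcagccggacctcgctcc

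The AP-1 motif was searched as TGANTCA, whose last 2 letters can also begin an E-box, as they did in S100a16. S100a11 held it at 136 and 38 bases before its start, and S100a16 held it once, 192 bases before the start of its other window. The AP-1 letters occurred in 7.81% of 32851 promoter windows. The TATA box, searched as TATAAA, stood 30 bases before the start in S100a8, 31 bases before it in S100a4 and 52 bases before it in the window of another start of S100a3. In S100a9 it began at base 1 of the RefSeq start. This motif occurred in 13.6% of all windows. The C/EBP motif, searched as TTGCNNAA, stood in S100a9 at 236 bases before the start and occurred in 10.8% of all windows. The S100a1 window held none of the 3 motifs. An E-box, searched as CANNTG, occurred in 72.3% of all windows and is not marked.

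S100a9 was abundant in epithelium while S100a8 was close to the counting limit. S100a9 (ENSMUSG00000056071.12, chromosome 3, 90692632 to 90695721, minus strand) had 361 to 870 counts in the 5 deeper epithelial samples and 35 to 59 counts in the 4 shallow samples. Its normalized count in epithelium was 13.8 at the lowest, 14.9 at the median and 26.4 at the highest, and the highest sample was O2. In stroma it was 0 in O1, 0.452 in O2, 0.459 in O3, 3.20 in Y1 and 0.158 in Y3. The layers did not overlap (log2 fold change 4.30, SE 0.66, adjusted p = 3.73e-05), and without mouse Y1 the log2 fold change was 5.88. DESeq2 gave no adjusted p for S100a9 between the layers.

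S100a8 (ENSMUSG00000056054.9, chromosome 3, 90668978 to 90670035, plus strand) had 19 counts in the epithelium of O1, 10 in O2, 1 in O3 and 5 each in Y1 and Y3. It had 0 counts in OF5, OM8 and YF5 and 1 in YM4. In stroma it had 0 in O1 and O3, 3 in O2, 27 in Y1 and 4 in Y3. Y1 stroma was thus the sample with the most S100a8. Summed over epithelium, S100a9 had 2807 counts and S100a8 had 41, which per kilobase of exon was a ratio of 91.0, and S100a9 was the higher in 9 of 9 samples. O1 held 19 of the 41 counts, and the ratio was 139 without it. The 4 shallow samples, with 1 S100a8 count in all, gave 257. Summed over stroma, S100a9 had 89 counts and S100a8 had 34, a ratio per kilobase of 3.48. Y1 held 62 and 27 of these counts, and the ratio was 5.13 without it. S100a9 was the higher in 3 of 5 stromal samples.

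Neutrophil genes gave different pictures with and without Cxcr2, a chemokine receptor on that list that was itself called higher in epithelium (log2 3.67, adjusted p = 0.000611). The whole list of 10 genes summed to 4.48 normalized counts at the lowest, 8.42 at the median and 10.4 at the highest in epithelium, and to 4.26 in O1, 5.67 in O2, 1.57 in O3, 13.1 in Y1 and 7.72 in Y3 stroma. The layers overlapped on this sum. Without Cxcr2 the other 9 genes (Ly6g, Mpo, Elane, Ngp, Camp, Ltf, Csf3r, Retnlg and Mmp8) summed to 0.142 to 1.64 normalized counts in epithelium, and to 1.93 in O1, 5.67 in O2, 1.57 in O3, 12.6 in Y1 and 7.49 in Y3 stroma. The layers overlapped here too, with Y3 epithelium above O3 stroma. Ly6g, the defining surface marker of mouse neutrophils, had 0 to 5 counts in the epithelial samples, 12 in Y1 stroma, 2 in Y3 stroma and 0 in the aged stroma. On both sums Y1 stroma, the stromal sample with the most S100a8 and S100a9, stood highest of all samples. The part of neutrophils in the S100a9 level of either layer was not tested.

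**Figure D3:**
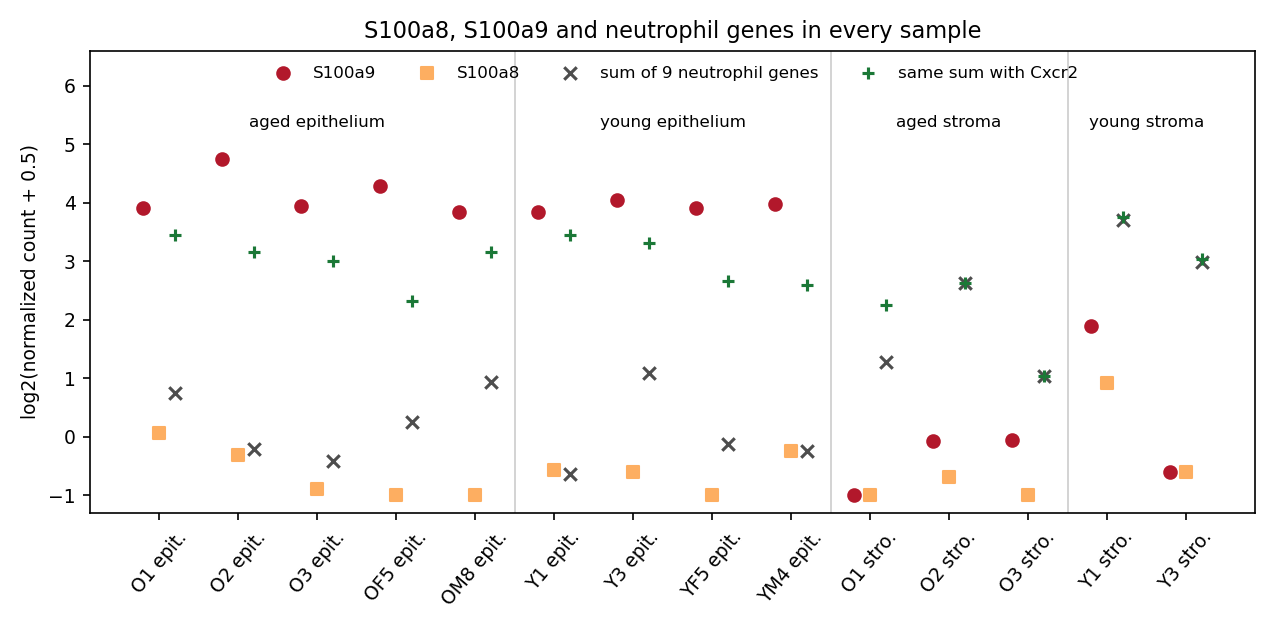
The vertical axis gives the log2 of the normalized count plus 0.5 for S100a9, S100a8 and the sum of the neutrophil genes, without Cxcr2 (9 genes) and with it (10 genes), in each of the 14 samples, grouped by layer and age. S100a9 lay above both sums in every epithelial sample, by less for the sum with Cxcr2 (13.8 against 10.4 normalized counts in Y1), and below both in every stromal sample.

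S100a3 and S100a4 were near the counting limit in both layers. S100a3 (ENSMUSG00000001021.12, chromosome 3, 90560578 to 90602702, plus strand), best known from the hair follicle, had 3 to 7 counts in each of the 5 deeper epithelial samples and 0 to 3 counts in every other sample. S100a4 (ENSMUSG00000001020.8, chromosome 3, 90603771 to 90606045, plus strand), a marker often used for fibroblasts and also found in immune cells, had 0 to 3 counts in an epithelial sample and 0 to 6 in a stromal one. In the same stroma, the summed markers ran from 415 to 1031 normalized counts for fibroblasts and from 91.4 to 276 for macrophages. In epithelium these sums ran from 280 to 632 for fibroblasts and from 24.9 to 79.6 for macrophages. In the GENCODE M21 annotation 302 of the 584 exon bases of S100a4 (51.7%) lie in the gene Gm42674 on the same strand, against 4.61% of the exon bases of S100a3 that are shared with other genes and none for the other 8 members. Gm42674 had 0 counts in all 14 samples. Whether reads in shared bases were dropped in counting is not given in the sources used here, so the S100a4 counts are uncertain and their part in its low level was not tested. The shares of the 10 genes given above include these counts.

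The 7 genes tested between the layers were ranked per kilobase of exon, without S100a4, whose counts are uncertain. Their epithelial order was S100a16, S100a14, S100a11, S100a10, S100a9, S100a6 and S100a1. The normalized count per kilobase was 52.4 ± 12.9 for S100a11, 46.8 ± 11.46 for S100a10, 31.6 ± 7.68 for S100a9, 27.7 ± 6.66 for S100a6 and 4.64 ± 1.42 for S100a1 (SD, n = 9). The neighbours S100a16 and S100a14, S100a11 and S100a10, and S100a9 and S100a6 lay within 1 SD of each other. Sample by sample, S100a11 was above S100a10 in 8 of 9 and S100a9 was above S100a6 in 7 of 9. In stroma the order was S100a1, S100a10, S100a6, S100a11, S100a16, S100a9 and S100a14. S100a1 led with 55.6 ± 7.98, ahead of S100a10 with 33.2 ± 7.71 in 5 of 5 samples, and S100a6 followed with 21.8 ± 10.1 and S100a11 with 16.7 ± 6.98 normalized counts per kilobase (SD, n = 5). S100a6 and S100a11 lay within 1 SD of each other, though S100a6 was the higher in 5 of 5 stromal samples, and so did S100a9 and S100a14.

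**Figure D4:**
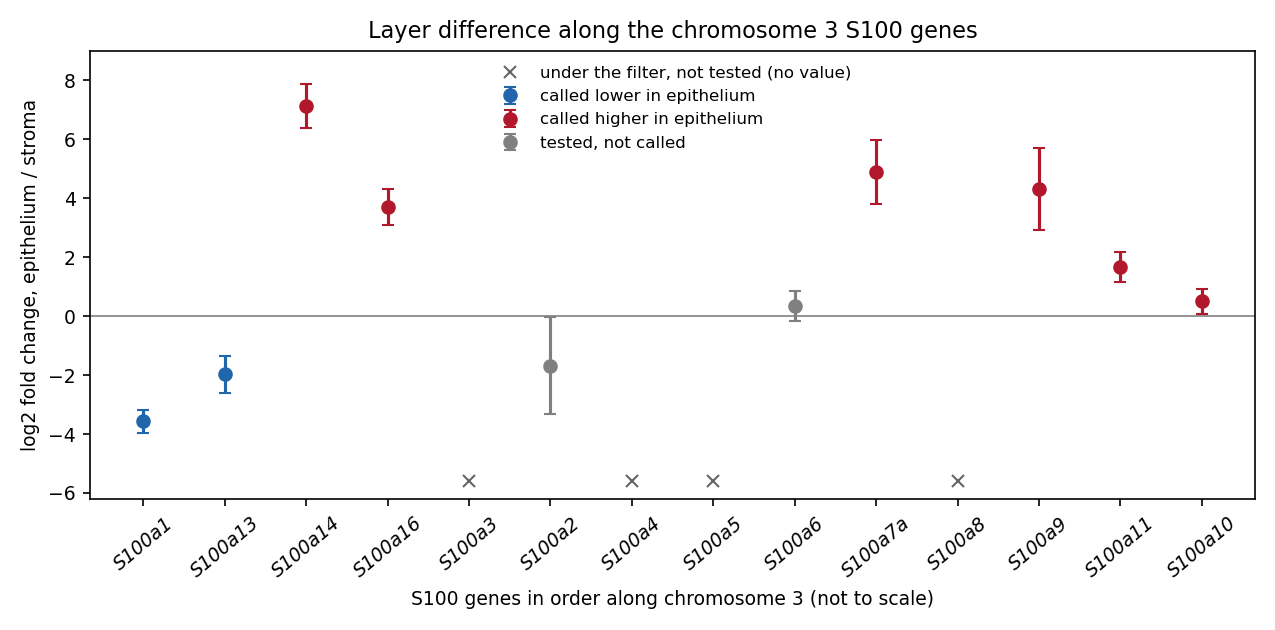
The vertical axis gives the log2 fold change of epithelium over stroma with its 95% interval, and the horizontal axis lists 14 S100 genes in their order along chromosome 3, not to scale. Crosses stand for genes under the filter and have no value. S100a1 and S100a13 at the left were called lower in epithelium, their neighbours S100a14 and S100a16 were called higher.

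Neighbours on the chromosome did not share a direction throughout. S100a13, which starts head to head with S100a1 and encodes a protein that helps to export growth factors, was called lower in epithelium (log2 −1.98, adjusted p = 1.43e-05), as was S100a1. The next genes along the chromosome are S100a14 and S100a16, which were called higher. S100a7a, the mouse gene of the psoriasin group, was called higher (log2 4.89, adjusted p = 3.68e-07), with a normalized count of 28.5 ± 7.33 (SD, n = 9) in the epithelial samples against 0.985 ± 0.777 (SD, n = 5) in the stromal ones. S100b, a Schwann cell and glial gene on chromosome 10, was called lower (log2 −3.90, adjusted p = 2.06e-05), while S100a2 was not called (log2 −1.68, adjusted p = 0.0742). Of the 8 other S100 genes listed, 4 passed the filter, and of these 1 was called higher and 2 lower, against 26.1% and 30.1% of all genes. The Schwann cell markers, with 4 of 5 called lower in epithelium, moved with S100b, and their part in its difference was not tested.

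Partner genes of the family were counted from 3 lists, each beside the 26.1% of all genes called higher and 30.1% called lower. These lists were chosen with earlier results of these data known, and the counts carry no test of the lists. Of 5 tested genes of the S100 fused type, large cornified envelope proteins that carry an S100 domain, 4 were called higher in epithelium: Rptn (log2 7.41), Hrnr (6.78), Flg (5.33) and Flg2 (1.76), while Tchh had 0.87 (adjusted p = 0.0634). Of 10 tested annexins, 5 were called higher and 3 lower. Anxa2, which binds S100A10, had a log2 fold change of 1.81, Anxa1, which binds S100A11, had 2.47, and Anxa5, Anxa8 and Anxa9 had 1.19, 4.47 and 5.55. Lower in epithelium were Anxa6 (log2 −2.67), Anxa11 (−1.77) and Anxa3 (−1.03), and Anxa4 (−0.04) and Anxa7 (−0.31) were not called. The log2 fold change of Anxa2 was thus above that of S100a10, though the difference between the genes was not tested.

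Among 9 tested receptors and partners, 4 were called higher in epithelium: the immunoglobulin-type surface proteins Alcam (log2 1.31) and Emb (1.25), the giant scaffold Ahnak (1.08), and the non-muscle myosin Myh9 (0.79). Cd36, a fatty acid receptor, was called lower (log2 −2.63). Tlr4, the innate receptor that responds to S100A8 and S100A9, had 0.11 (adjusted p = 0.705), Bsg had −0.19, Cd33 had −0.61 and Cacybp, which binds S100A6, had 0.62, none of them called. Ager, the receptor for advanced glycation end products, stayed under the filter of the layer comparison. It had 680 counts in O3 stroma and 0 to 20 counts in every other sample. The medians were 5.33 for the fused-type list, 0.57 for the annexins and 0.62 for the receptors and partners, against −0.05 for all genes.

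In epithelium, no S100 gene was called between aged and young mice. The comparison covered 7 of the 10 genes, adjusted for the 2 forms of mouse code, and 0 of 7 were called against 2 of 15107 genes, or 0.0132% (edgeR). At an unadjusted p under 0.05 edgeR counted 507 genes, and DESeq2 called 24 genes, none of them a member. Of the 7 log2 fold changes, 5 were below 0, and the median was −0.20, against −0.00288 over all genes.

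S100a10 was the 1 member with an unadjusted p under 0.05 in aged epithelium. Its normalized count was 50.4 in O1, 62.3 in O2, 68.0 in O3, 48.2 in OF5 and 29.5 in OM8, against 73.3 in Y1, 63.1 in Y3, 68.3 in YF5 and 47.8 in YM4. The groups overlapped, and the log2 fold change was −0.35 (SE 0.16, unadjusted p = 0.0404, adjusted p = 0.999 in edgeR). For S100a9 the normalized count was 17.7 ± 5.20 (SD, n = 5) in aged epithelium against 14.9 ± 0.942 (SD, n = 4) in young, with a log2 fold change of 0.24 (SE 0.19). The wider spread of the aged group came with the high value of O2, at 26.4.

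For the other members the 95% interval of the log2 fold change in epithelium was −0.52 to 0.12 for S100a14, −0.53 to 0.06 for S100a16, −0.44 to 0.10 for S100a11, −0.42 to 0.42 for S100a6 and −1.003 to 0.14 for S100a1. S100a8 in epithelium had 30 counts over the 5 aged and 11 over the 4 young samples, 19 of the 30 in O1.

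In stroma the age comparison rested on 3 aged and 2 young samples, and 0 of 7 members were called, against 0 of 21323 genes, or 0% (edgeR). At an unadjusted p under 0.05 edgeR counted 776 genes, none of them a member, and DESeq2 called 2, again without a member. The median log2 fold change was 0.01 over the members and −0.01 over all genes. S100a9 had the log2 fold change farthest from 0, −2.42 (SE 2.003, 95% interval −6.90 to 2.06), which turned to 0.92 without mouse Y1. Y1 stroma held 62 of the 66 young counts of S100a9 and was also the stromal sample with the most neutrophil gene counts, 244, whose part in the difference was not tested.

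S100a14 had a normalized count of 2.22, 1.60 and 0.995 in aged stroma and 0.619 and 0.709 in young stroma, from 12 to 39 counts a sample. The log2 fold change was 1.25 (SE 1.37) and was not called by edgeR. The 8 tested squamous epithelium markers also had log2 fold changes above 0 in aged stroma, with a median of 2.21 and none called, and their sum was 53.2 in O1, 460 in O2, 255 in O3, 75.9 in Y1 and 47.7 in Y3. O1 stroma therefore had the most S100a14 and the lowest squamous sum of the aged samples, and the part of epithelial remnants was not tested. The 95% intervals were −0.58 to 0.60 for S100a1, −0.73 to 0.68 for S100a10, −0.72 to 1.38 for S100a6, −1.28 to 1.08 for S100a11 and −1.07 to 1.25 for S100a16.

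**Figure D5:**
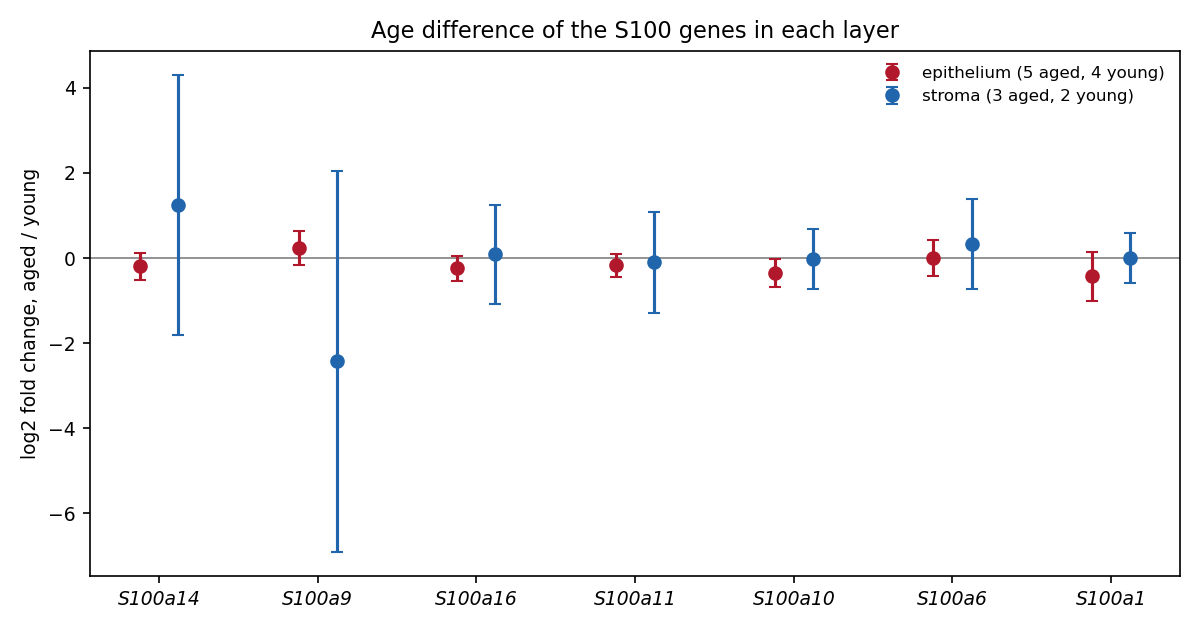
The vertical axis gives the log2 fold change of aged over young with its 95% interval, for 7 S100 genes, in epithelium (5 aged, 4 young) and in stroma (3 aged, 2 young). In epithelium the points lay between −0.43 and 0.24, and in stroma all intervals included 0, with the widest for S100a9 and S100a14.

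Whether age acted differently in the layers was tested by an age-by-layer interaction over 10 samples, from the mice that gave both. None of 8 tested members was called, against 0 of 22771 genes, or 0% (edgeR). At an unadjusted p under 0.05 edgeR counted 979 genes, with S100a14 as the 1 member, and DESeq2 called 45 genes, none of them a member. S100a14 had −1.25 (SE 0.42, unadjusted p = 0.0129), a lower age difference in epithelium than in stroma, and was not called. S100a8 had 4.85 (SE 2.55) and S100a9 had 2.65 (SE 1.30), and neither was called. Without mouse Y1 these were 2.70 and −0.76, and without mouse O2 the S100a8 value was 8.02.

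Across the 9 epithelial samples the levels of S100a10, S100a11, S100a14 and S100a16 were correlated. After the mean of each code form was subtracted, Pearson's r of log2 values was 0.94 between S100a11 and S100a14, 0.94 between S100a10 and S100a14, 0.93 between S100a10 and S100a11 and 0.87 between S100a14 and S100a16. In the 5 deeper epithelial samples alone, these pairs had r of 0.64, 0.90, 0.83 and 0.95, while other pairs dropped: S100a11 with S100a16 from 0.81 to 0.39, and S100a6 from 0.75 to 0.27 with S100a10, from 0.81 to 0.38 with S100a11 and from 0.73 to 0.37 with S100a16. Over the 9 samples S100a9 stood apart, with r between −0.04 and 0.22 to the other 6 genes. In the 5 deeper samples alone its r ran from −0.47 with S100a11 to 0.41 with S100a16. OM8 had the lowest normalized count of S100a6, S100a10, S100a11, S100a14, S100a16 and S100a1 of all epithelial samples, but not of S100a9. These values describe 9 libraries that share 1 normalization and differ in depth, and they carry no test.

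A log2 mean normalized count of at least 5 in epithelium was reached by 4 members, S100a6, S100a10, S100a14 and S100a16. Of these, S100a10 and S100a16 are described here. Among 1931 genes over the same 9 samples, the patterns most similar to S100a10 were those of Lce3b, Cox6c and Gpx1 (r 0.99, 0.98 and 0.97). Those most similar to S100a16 were Rps18-ps3, Bag1 and Rpsa (0.996, 0.99 and 0.98). These r values were picked as the 3 highest for each gene, over samples that include the 4 shallow ones, and they carry no test.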

How the data were processed

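Bulk RNA-Seq counts of 14 samples from 9 mice were analysed. For each sample the authors deposited raw counts of reads per gene symbol, with no normalization. Per the study's methods, reads were aligned to GRCm38.p6 with Rsubread and counted with featureCounts. The libraries were made from oligo(dT)-selected RNA, and the versions, strand setting and handling of reads that match several genes are not given in the sources used here. Gene positions were taken from GENCODE M21, which held 53292 of the 55291 symbols.

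The test was edgeR's quasi-likelihood test (edgeR 4.0.16, R 4.3.3, TMM, filterByExpr with a minimum count of 10, robust glmQLFit) over all genes that passed the filter, with Benjamini-Hochberg adjustment and a threshold of 0.05. The study's methods name DESeq2, which was run as an alternative (1.42.0). Layers were compared over 14 samples without a covariate. Age was compared in the 9 epithelial samples adjusted for the 2 forms of mouse code, in the 5 stromal samples, and as an interaction with layer in the 10 samples of 5 mice. The 5 mice are paired by the animal, whose code the labels of both layers share. Deviations from the group means correlated at 0.0508 to 0.0896 within a mouse. Each sample is another mouse or another layer of it, and no sample was left out. Sex is labelled for 3 mice and was not used. Counting limits and intervals cover counting error or the spread between these samples only.

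All 10 members are named, with the genes of the lists of other S100 genes, fused-type genes, annexins, and receptors and partners that passed the layer filter. The members and lists were chosen with earlier results of these data known. The 3 genes most like a member were taken for members with a log2 mean of at least 5, and those of S100a6 and S100a14 are not reported here. Fits were tested on simulated counts. The alternatives were DESeq2, other size factors, other filters, protein-coding genes only, other covariates, subsets by age or code form, the mouse as a block, and each mouse left out.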

Additional observations from a re-analysis of the deposited data

How the results depend on the processing

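Between the layers, 5 to 7 of the 10 members were called under all alternatives but one: with at least 10 counts in every sample, 3 were called, because S100a1 and S100a9 were no longer tested and S100a10 had a log2 fold change of 0.19. S100a10 was also not called with upper quartile factors (0.41). Over all genes tested, 9441 of 16791 were called without these changes, and 4316 of 6711 with at least 10 counts in every sample. S100a6 was called without a filter (0.53) and with the mouse as a replicate block (0.56), and the block changed no other call of a member. The median log2 over all genes tested was −0.05, and −0.12 with DESeq2, −0.12 with RLE size factors and −0.15 with upper quartile factors. No alternative called a member by age or in the interaction, at log2 fold changes that changed sign as follows. In epithelium S100a6 had −0.0139 with DESeq2, −0.0319 without a filter, −0.0123 without the covariate and −0.47 in the 4 mice with epithelium only, and −0.15 to 0.18 with a mouse left out. In stroma S100a1 had −0.0587 with upper quartile factors and −0.0229 with the stricter filter, and S100a16 had −0.0228 with upper quartile factors. With a stromal mouse left out the range was −0.21 to 0.22 for S100a1, −0.16 to 0.71 for S100a6, −3.38 to 0.92 for S100a9, −0.25 to 0.21 for S100a10, −0.75 to 0.18 for S100a11 and −0.65 to 0.41 for S100a16. In the interaction, DESeq2, RLE size factors, no filter and protein-coding genes only gave S100a6 −0.0365, −0.038, −0.26 and −0.0816, and S100a11 −0.0265, −0.0282, −0.24 and −0.0684, and the replicate block gave S100a16 0.12. With a mouse left out the interaction was −0.34 to 0.29 for S100a6, −0.76 to 3.63 for S100a9, −0.33 to 0.61 for S100a11 and −0.47 to 0.61 for S100a16. The cause of these changes of sign was not tested. Without mouse Y1 or Y3 the lone young stromal sample is assumed to vary like the aged ones. The 4 shallow epithelial samples, with 1042394 to 1433855 protein-coding counts, limit what can be seen of S100a3, S100a4 and S100a8.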

Other observations

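Other S100 genes were not called by age either. In epithelium S100a7a had a log2 fold change of −0.39 (SE 0.16, unadjusted p = 0.0258, adjusted p = 0.999 in edgeR), and S100a13 had −0.33 (SE 0.28). In stroma S100a13 had 0.92 (SE 0.50) and S100b had −1.38 (SE 0.87), with 9 to 79 counts of S100b in the aged and 90 and 105 in the young stromal samples. The 5 Schwann cell markers all had log2 fold changes below 0 in aged stroma, with a median of −1.23 and none called, and their part in the S100b value was not tested.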
